A study of Mus musculus with 12 samples.

Results

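Plagl1, Cdkn1c, Igf2r, Grb10, Peg3, Ndn, Sgce, Gnas and Impact are imprinted genes, most of them tied to cell growth, and were picked by name as 9 of the 13233 genes in an RNA-Seq table of hernia-associated fibroblasts (HAFs). All 9 were in the table. HAFs are primary fibroblasts grown from the lower abdominal muscle (LAM) of Aromhum mice, which carry the human aromatase gene, make estradiol (E2) in that muscle and develop hernias. Every sample came from Aromhum cells, so no group lacked the transgene, and the age of the mice and the number of animals per culture were not given in the sources used here. After 1 passage and starvation, 3 samples each received ethanol and DMSO (vehicle), 10 nM E2, 10 nM E2 with 100 nM fulvestrant (E2 plus fulvestrant) or 100 nM fulvestrant, and RNA was collected at 48 h. Fulvestrant is an antagonist of the estrogen receptor ESR1: it keeps E2 off the receptor, which is then broken down. The values are normalized counts, meaning reads per gene divided by a size factor per sample. The labels number the samples of each group 1 to 3 without naming separate animals, so p-values describe these samples only. In the fit with the replicate number as a block, they measure the spread left after that number is taken out.

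Imprinted genes carry marks laid down in the germ line, and the copy from the mother or the copy from the father is largely silent. Among the genes described here, Cdkn1c, Igf2r and, outside the brain, Grb10 are transcribed mainly from the maternal copy and are known to restrain growth. Plagl1, Peg3, Ndn, Sgce and Impact are transcribed mainly from the paternal copy, and Gnas produces several transcripts that differ in their parental origin. Plagl1 encodes the zinc finger factor ZAC1, which is known to regulate a network of imprinted genes that includes Cdkn1c. The counts do not separate the parental copies, so every value below is the sum of both. Whether a copy is silent in these fibroblasts was not tested for any gene.

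Sequence before an annotated RefSeq start is shown for Plagl1, which had the largest fulvestrant difference of the 9, and for Igf2r, whose difference went in opposite directions between samples. Windows of 250 bases before each annotated start were taken from RefSeq on GRCm38.p6, where 6 of the 9 genes had 10 windows between them. The estrogen response element GGTCANNNTGACC, a palindrome, was in 0 of these 10 windows and in 0.0639% of the 32851 windows of all genes. Its half-site, GGTCA or TGACC when read on the other strand, was in 35.2% of all windows and overlaps the full element. The Plagl1 window held 0 half-sites and the Igf2r window held 2, which are in capitals. The Plagl1 window precedes a start inside the annotated gene: in GENCODE 21 of its 25 transcripts start within the window or the 50 bases after it, 1 starts 30.3 kb upstream and 3 start later. Only the 109 bases of this window before the first exon annotated in it are printed, chr10:13090582-13090690 on the plus strand, and for Igf2r the 250 bases are chr17:12769707-12769956 on the minus strand, both 5′ to 3′ along the gene.
Plagl1: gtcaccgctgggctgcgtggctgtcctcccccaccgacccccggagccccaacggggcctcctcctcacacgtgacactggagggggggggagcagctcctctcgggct
Igf2r: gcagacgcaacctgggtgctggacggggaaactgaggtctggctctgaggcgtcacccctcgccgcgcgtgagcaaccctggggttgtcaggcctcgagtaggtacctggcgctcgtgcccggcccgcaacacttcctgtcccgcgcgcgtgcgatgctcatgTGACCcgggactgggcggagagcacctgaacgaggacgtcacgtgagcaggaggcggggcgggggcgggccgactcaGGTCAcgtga
The letters describe these windows only and say nothing of binding elsewhere.

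Each sample held between 18827792 and 44040507 reads on listed genes (median 31703872). Pgr, a known ESR1 target, read 25.4, 85.3 and 104 normalized counts in replicates 1 to 3 with vehicle, 145, 268 and 304 with E2, and 13 to 28 in the 6 samples with fulvestrant. The 9 fibroblast markers examined were all present, and 6 of 30 markers of other cell types were in the table. No myogenic or adipocyte marker was among these 6, and their summed level was 2256 to 4559 per sample. Replicate 1 stood apart in every group: 52.4% of all genes differed between replicate 1 and replicates 2 and 3 by the rule used throughout, an adjusted p under 0.05 in limma with a fold change over 1.2. That share comes from a fit that already holds the replicate number as a block. The block was chosen because the samples are paired by number and the paper describes a batch adjustment, with earlier results of these data known. Values from a fit without it are given beside the results it changes.

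**Figure D1:**
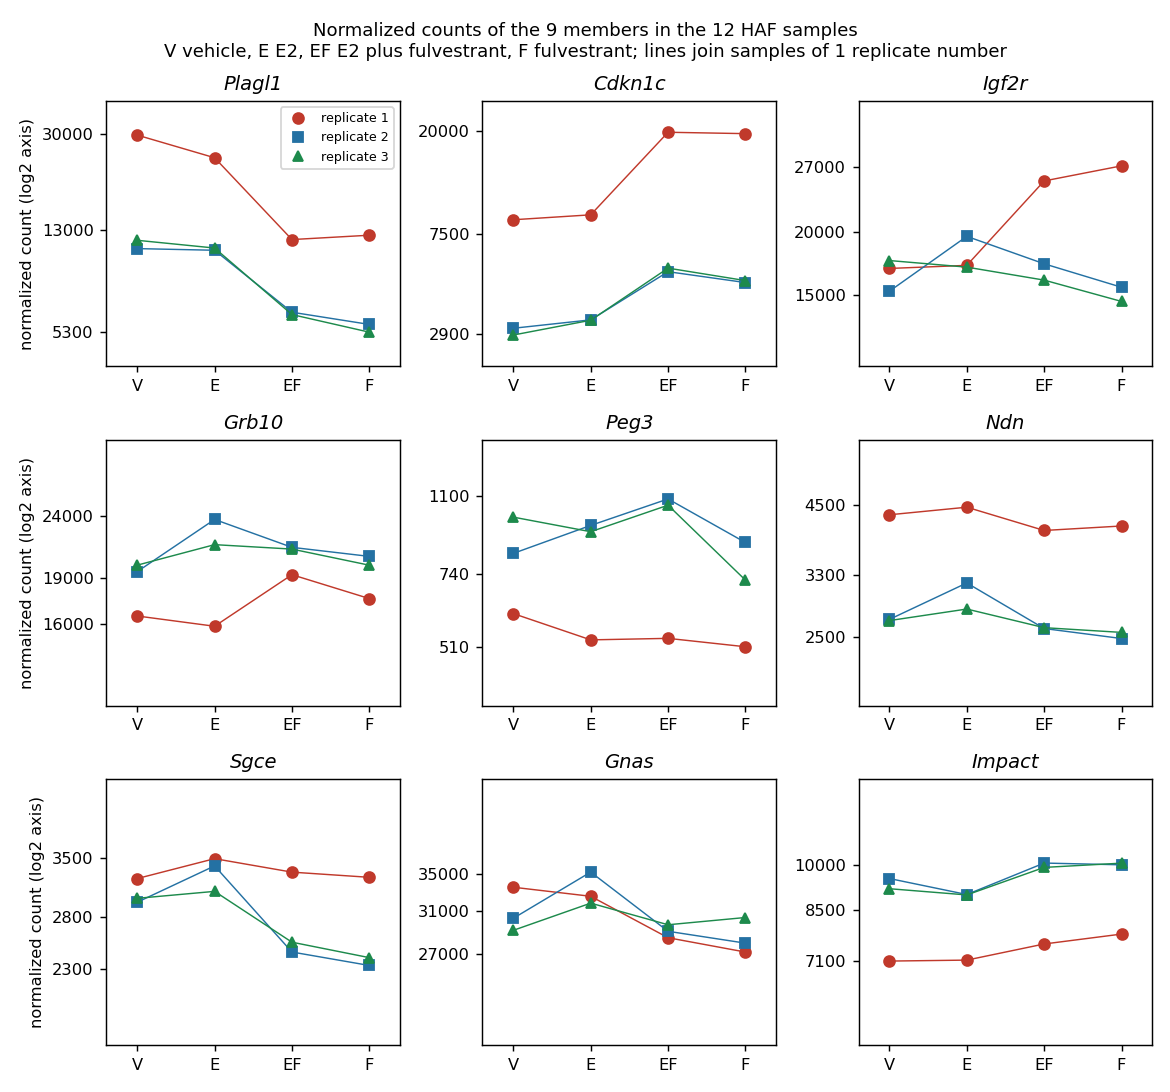
Normalized counts (log2 axis) of the 9 genes in the 12 samples, by treatment, with lines joining samples of the same replicate number. Plagl1 was lower and Cdkn1c higher in each sample with fulvestrant than in the same-numbered samples without it, and replicate 1 lay above replicates 2 and 3 for both genes.

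Plagl1 fell with fulvestrant and Cdkn1c rose, with or without added E2. These were 2 of the 9 genes called in the comparison of all 6 samples with fulvestrant against all 6 without it, beside 15.5% of all genes. Over the 9 genes the median log2 difference was -0.04, and over all genes it was 0.01.

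Plagl1 (chr10:13060504-13131694, plus strand), the ZAC1 factor known to slow the cell cycle and promote apoptosis, read 29706, 11010 and 11839 normalized counts in replicates 1 to 3 with vehicle and 24368, 10852 and 11065 with E2. With E2 plus fulvestrant it read 11915, 6311 and 6184, and with fulvestrant 12377, 5673 and 5301. Within each replicate number both samples with fulvestrant lay below both samples without it, while replicate 1 with fulvestrant reached the level of replicates 2 and 3 without it. The log2 difference with against without fulvestrant was -1.01 ± 0.06 (SE), or 2.01-fold lower (adjusted p = 1.4e-06). It was -1.13 ± 0.08 for fulvestrant against vehicle (adjusted p = 2.1e-05), where 12.5% of all genes were called. E2 against E2 plus fulvestrant gave a difference of 0.88 ± 0.08 (adjusted p = 1.0e-04), and 9.60% of all genes were called. The 6 differences between same-numbered samples ran from -1.26 to -0.78, and 27.2% of all genes moved the same way in all 6. Without the replicate block the adjusted p was 0.206 over all 12 samples, 0.637 for fulvestrant against vehicle and 0.841 for E2 against E2 plus fulvestrant, so no call held in that fit. Without the 4 samples of replicate 1 the difference with against without fulvestrant was -0.93 (adjusted p = 2.9e-07).

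Cdkn1c (chr7:143458339-143461050, minus strand) encodes p57, an inhibitor of cyclin-dependent kinases that holds cells out of division. It read 8584, 3050 and 2860 normalized counts with vehicle and 8997, 3304 and 3292 with E2. It read 19772, 5231 and 5412 with E2 plus fulvestrant and 19514, 4716 and 4805 with fulvestrant. Every sample with fulvestrant lay above both same-numbered samples without it, and the values of replicate 1 were the highest in each group. The log2 difference with against without fulvestrant was 0.85 ± 0.08, or 1.80-fold higher (adjusted p = 2.5e-05). It was 0.85 ± 0.11 for fulvestrant against vehicle (adjusted p = 6.2e-04) and -0.84 ± 0.11 for E2 against E2 plus fulvestrant (adjusted p = 7.5e-04). Without the replicate block these adjusted p-values were 0.560, 0.950 and 0.992, and no call held. Without replicate 1 the difference with against without fulvestrant was 0.69 (adjusted p = 1.1e-06). An antisense gene, Gm44732, overlaps 30.7% of the exon sequence of Cdkn1c on the other strand and was not in the table, and the authors counted reads by strand.

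Igf2r and Grb10 act in insulin-like growth factor signalling, and neither was called in any comparison of treatments. Igf2r (chr17:12682406-12769664, minus strand), the receptor that takes up IGF2 for degradation, read 16938, 15252 and 17567 normalized counts with vehicle and 17183, 19640 and 17042 with E2. It read 25362, 17305 and 16051 with E2 plus fulvestrant and 27190, 15532 and 14548 with fulvestrant. Both replicate 1 samples with fulvestrant were above all 10 others, and the other 4 samples with fulvestrant, from 14548 to 17305, overlapped those without it. The log2 difference with against without fulvestrant was 0.12 ± 0.12 (adjusted p = 0.505), with a 95% confidence interval of -0.15 to 0.39. Without replicate 1 it was -0.13. Grb10 (chr11:11930508-12038683, minus strand), an adaptor that binds and dampens the insulin and IGF1 receptors, read 16481, 19488 and 19970 with vehicle, 15854, 23733 and 21578 with E2, 19263, 21360 and 21220 with E2 plus fulvestrant and 17601, 20642 and 19967 with fulvestrant. The treatments overlapped, with a difference of 0.05 ± 0.06 (adjusted p = 0.579, confidence interval -0.08 to 0.17), which changed sign to -0.02 when replicate 1 was left out.

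Peg3 and Ndn are paternally expressed genes linked to p53 signalling and growth arrest. Peg3 (chr7:6703892-6730431, minus strand), a large zinc finger protein, read 604, 821 and 988 normalized counts with vehicle, 529, 947 and 917 with E2, 533, 1083 and 1050 with E2 plus fulvestrant and 510, 868 and 717 with fulvestrant. Replicate 1 was the lowest of each group, and the difference with against without fulvestrant was -0.04 ± 0.08 (adjusted p = 0.761, confidence interval -0.21 to 0.13). Ndn (chr7:62346569-62350262, plus strand), which encodes necdin, a MAGE family protein that binds E2F1 and p53, read 4311, 2702 and 2688 with vehicle and 4459, 3179 and 2830 with E2. It read 4019, 2594 and 2604 with E2 plus fulvestrant and 4100, 2481 and 2549 with fulvestrant. All 6 same-numbered differences were below 0, from -0.29 to -0.07. The log2 difference of -0.14 ± 0.04 passed the adjusted p threshold (0.0172) but, at 1.10-fold, not the fold threshold, and without the block its adjusted p was 0.836.

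With against without fulvestrant Sgce, Gnas and Impact differed by less than 1.2-fold. Sgce (chr6:4674350-4747207, minus strand), which encodes epsilon-sarcoglycan of the dystrophin-associated complex, read 3233, 2957 and 3001 normalized counts with vehicle and 3486, 3392 and 3081 with E2. It read 3313, 2450 and 2543 with E2 plus fulvestrant and 3249, 2329 and 2399 with fulvestrant. In replicates 2 and 3 every sample with fulvestrant was below every sample without it, and in replicate 1 the 4 values lay within 3233 to 3486. The difference with against without fulvestrant was -0.25 ± 0.06 (adjusted p = 0.0086, 1.19-fold). It passed both thresholds without replicate 1, at -0.35 (adjusted p = 2.1e-04), with quantile normalization, at -0.29, and as CPM of the listed genes, at -0.27, and without the replicate block its adjusted p was 0.316. Impact (chr18:12955852-12992950, plus strand), which inhibits the amino acid sensing kinase GCN2, read 7092, 9530 and 9189 with vehicle, 7117, 9000 and 8987 with E2, 7540, 10073 and 9917 with E2 plus fulvestrant and 7812, 10010 and 10069 with fulvestrant. Its 6 same-numbered differences were all above 0, from 0.07 to 0.16, and the difference of 0.12 ± 0.03 (adjusted p = 0.0147) amounted to 1.09-fold. Without the block its adjusted p was 0.744.

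Gnas (chr2:174284320-174346744, plus strand), whose main product is the stimulatory G protein subunit that activates adenylyl cyclase, read 33527, 30329 and 29170 normalized counts with vehicle and 32561, 35211 and 31848 with E2. It read 28480, 29077 and 29698 with E2 plus fulvestrant and 27191, 27985 and 30402 with fulvestrant. All 3 samples with E2 were above all 3 with E2 plus fulvestrant, and values of 2 groups did not overlap in this comparison for 12.5% of all genes. The difference with against without fulvestrant was -0.15 ± 0.06 (adjusted p = 0.0674, confidence interval -0.28 to -0.03). The deposited row sums all transcripts of this locus, including those with alternative first exons, and 22.0% of its exon sequence lies opposite exons of Gm20721 and Nespas on the other strand.

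**Figure D2:**
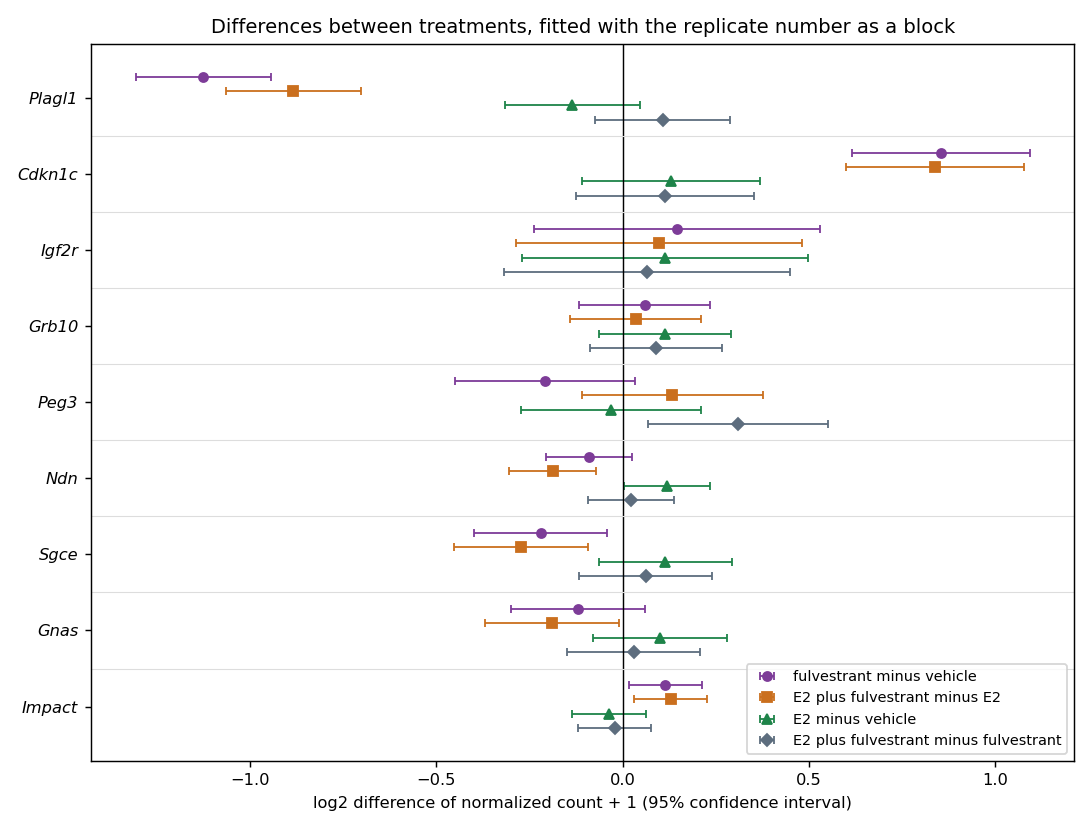
Log2 differences of the normalized count + 1 between treatments for the 9 genes, from the fit with the replicate number as a block, with 95% confidence intervals (3 samples a group). The fulvestrant differences of Plagl1 (-1.13 and -0.88) and Cdkn1c (0.85 and 0.84) lie away from 0, and the E2 differences of both genes lie near 0.

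Added E2 changed none of the 9 genes by the rule used. E2 against vehicle called 0 of the 9, with 1 at an unadjusted p under 0.05 beside 1340 of all genes (10.1%), and called 10 of 13233 genes (0.0756%). Plagl1 differed by -0.13 ± 0.08 (adjusted p = 0.589, confidence interval -0.32 to 0.05) and was lower with E2 in all 3 same-numbered pairs. Cdkn1c differed by 0.13 ± 0.11 (adjusted p = 0.697, confidence interval -0.11 to 0.37) and was higher in all 3, a count that 39.0% of all genes reached in either direction. Ndn, the gene with the unadjusted p under 0.05, differed by 0.12 ± 0.05 (adjusted p = 0.486). E2 plus fulvestrant against fulvestrant called 0 of the 9 and 0.00% of all genes, with 255 genes at an unadjusted p under 0.05. Peg3 was the 1 member among these 255, higher with E2 in all 3 pairs by 0.31 ± 0.11 (unadjusted p = 0.0168), and 23.8% of all genes moved 1 way in all 3. In the other 8 genes this difference ran from -0.02 to 0.11. The interaction of E2 and fulvestrant, which compares the E2 difference with and without fulvestrant, called 0 of the 9 and 0.00% of all genes, with 0 of the 9 and 501 of all genes at an unadjusted p under 0.05. Its values for the 9 genes ran from -0.10 for Ndn to 0.34 for Peg3. The comparisons share samples, since each group enters 2 of the 4 comparisons of single groups.

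For Ndn and Sgce the comparison of E2 against E2 plus fulvestrant lay near the thresholds. Ndn differed by 0.19 ± 0.05 (adjusted p = 0.0415) and Sgce by 0.27 ± 0.08 (adjusted p = 0.0524, 1.21-fold), each higher with E2 in all 3 pairs, as were 50.0% of all genes in either direction. For fulvestrant against vehicle the same genes differed by -0.09 ± 0.05 and -0.22 ± 0.08 (adjusted p = 0.278 and 0.0915).

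The replicate number accounted for much of the variation in the members. By sums of squares on the log2 scale it took 91.8% for Ndn, 88.3% for Impact, 83.5% for Peg3, 77.2% for Cdkn1c and 53.2% for Plagl1. For Gnas it took 0.262% and treatment 64.3%. Treatment took 45.6% for Plagl1 and 21.2% for Cdkn1c, and 1.16% and 1.58% remained. Cdkn1c was higher in replicate 1 than in replicates 2 and 3 by 1.73 ± 0.08 on the log2 scale, Plagl1 by 1.16 ± 0.06 and Ndn by 0.65 ± 0.04. Peg3, Impact and Grb10 were lower in replicate 1, with differences of -0.75 ± 0.08, -0.38 ± 0.03 and -0.28 ± 0.06. In all, 8 of the 9 genes passed both thresholds in this comparison, 5 higher and 3 lower, beside 25.4% and 27.0% of all genes, and Gnas did not (0.00 ± 0.06). The comparison sets 1 replicate number against 2, so its errors do not measure the spread between replicate numbers. What distinguishes replicate 1 is not stated in the labels and its part in these differences was not tested.

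**Figure D3:**
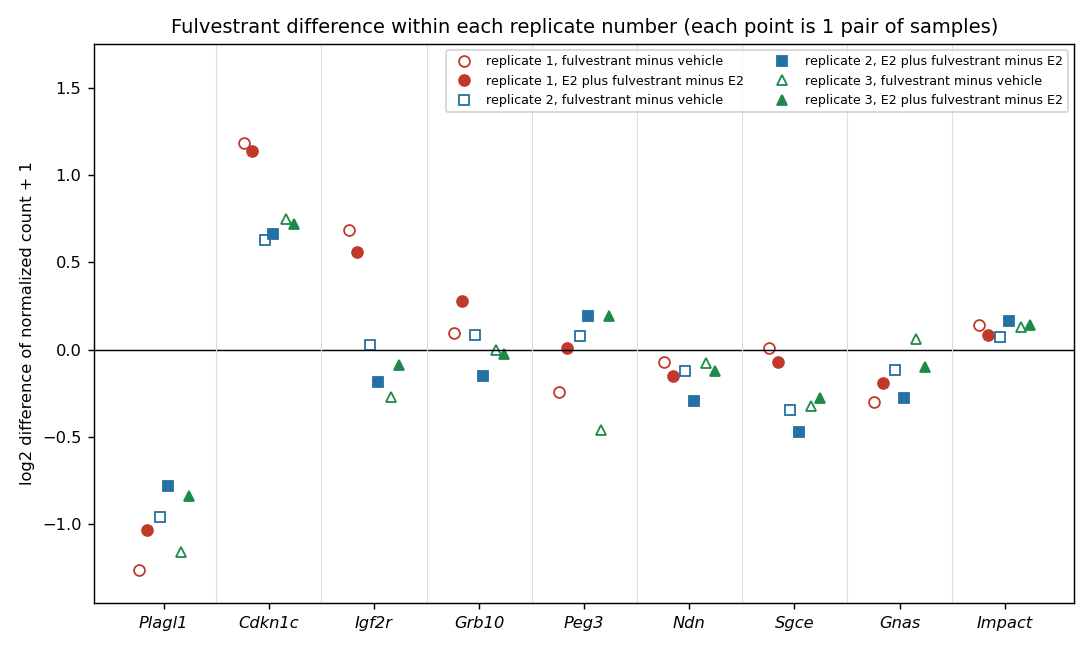
Log2 fulvestrant difference in each pair of same-numbered samples, without E2 (open symbols) and with E2 (filled symbols), for the 9 genes (2 pairs for each replicate number). Igf2r was raised in the 2 pairs of replicate 1 (0.68 and 0.56) and lay between -0.27 and 0.03 in the other 4, and Plagl1 lay below 0 and Cdkn1c above 0 in all 6.

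The size of the fulvestrant difference varied with the replicate number in 3 of the 9 genes. This test was added after the data were seen, and 6.87% of all genes passed both thresholds in it. It sets replicate 1, picked out in these same data, against the other 2 and counts its 2 samples with fulvestrant separately. Its errors and p-values therefore do not measure the spread between replicate numbers. For Igf2r the mean of the 2 pairs was 0.62 in replicate 1, -0.08 in replicate 2 and -0.18 in replicate 3, and replicate 1 exceeded the other two by 0.75 ± 0.12 (adjusted p = 0.0030). For Cdkn1c the means were 1.16, 0.65 and 0.73, a difference of 0.47 ± 0.07 (adjusted p = 0.0024). For Sgce they were -0.03, -0.41 and -0.30, a difference of 0.32 ± 0.07 (adjusted p = 0.019). Plagl1 gave -1.15, -0.87 and -1.0, a difference of -0.21 ± 0.10 (adjusted p = 0.261).

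Per kilobase of exon, which allows levels to be compared between genes, the order over the 12 samples was Cdkn1c at a mean of 3659 normalized counts per kilobase, then Gnas at 2723, Grb10 at 2174, Igf2r at 1966, Impact at 1728, Plagl1 at 1562, Ndn at 869, Sgce at 278 and Peg3 at 59.8. The ranges of neighbours overlapped from Cdkn1c (1402 to 9697) to Ndn (672 to 1207). Sgce (219 to 328) and Peg3 (38.3 to 81.3) lay apart from all others. Cdkn1c was above Gnas per kilobase in all 4 samples of replicate 1 and below it in the other 8. By group it was below Gnas with vehicle (2369 against 2772) and with E2 (2549 against 2969), and above it with E2 plus fulvestrant (4972 against 2600) and with fulvestrant (4747 against 2550). Over the 8 samples of replicates 2 and 3 its mean was 2003 per kilobase, below Gnas at 2724 and Grb10 at 2310, and Plagl1 was at 1091. Over all 12 samples Cdkn1c exceeded 98.2% and Plagl1 94.3% of all genes with a known exon length, and Peg3 exceeded 21.2%. Over replicates 2 and 3 these shares were 95.8%, 90.9% and 24.8%. With vehicle the mean level per kilobase was 2240 for Plagl1 and 2369 for Cdkn1c, and with fulvestrant 996 and 4747. Without replicate 1 these means were 1461 and 1449 with vehicle, and 702 and 2335 with fulvestrant. In bulk RNA a change in the number of cells that express a gene and a change in RNA per cell cannot be told apart.

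Other genes listed as imprinted gave a wider picture, and whether each is imprinted in these fibroblasts was not tested. Of 65 names listed, 38 were in the table, and 3 rose and 8 fell with fulvestrant (6 samples against 6), beside 7.71% of all genes higher and 7.81% lower. Their median log2 difference was -0.10. Without the replicate block 2 of the 38 were called, Atp10a and Ppp1r9a, and without replicate 3 there were 6. E2 against vehicle called 0 of the 38, with 3 at an unadjusted p under 0.05.

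**Figure D4:**
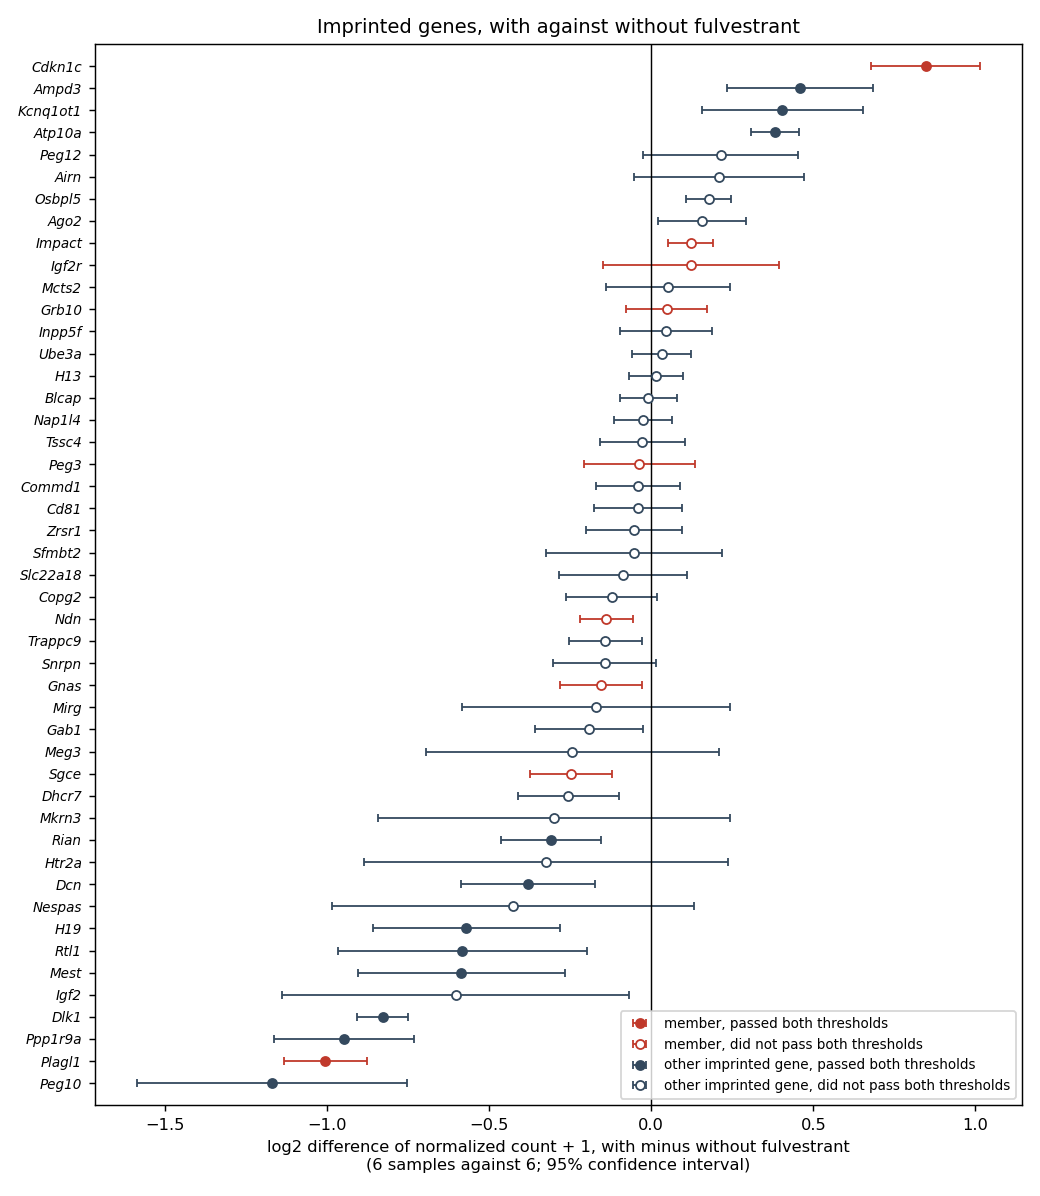
Log2 difference of the normalized count + 1 with against without fulvestrant (6 samples against 6) for the 9 members (red) and 38 other imprinted genes (dark), with 95% confidence intervals, and filled symbols where both thresholds were passed. Peg10 (-1.17) and Plagl1 (-1.01) lie lowest and Cdkn1c (0.85) lies highest.

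Around Cdkn1c, 9 other genes of chromosome 7 listed as imprinted lay within 2 Mb and were in the table. Kcnq1ot1, the long noncoding RNA whose transcription silences the paternal copies of this domain, rose by 0.40 ± 0.11 (adjusted p = 0.0211), from 2307 to 5433 normalized counts in the 6 samples without fulvestrant to 3401 to 9550 with it. H19, a maternally expressed noncoding RNA 880 kb away, fell by 0.57 on the log2 scale (-0.57 ± 0.13, adjusted p = 0.0079), with replicate 1 between 2600 and 4963 and the other 8 samples between 7484 and 14081. Osbpl5 (0.18 ± 0.03) and Dhcr7 (-0.26 ± 0.07) passed the adjusted p threshold alone, and Dhcr7 passed both in 6 of the fits that left out samples. Slc22a18, the nearest at 12.7 kb, gave -0.09 ± 0.09 and Nap1l4, at 52.5 kb, -0.02 ± 0.04, and Igf2, Cd81 and Tssc4 were not called either over all 12 samples. Kcnq1ot1, H19 and Cdkn1c each had a no-block adjusted p over 0.05.

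Beside Sgce, Peg10 starts 0.099 kb away on the other strand and fell by 1.17 on the log2 scale (-1.17 ± 0.19, adjusted p = 0.0011), a retrotransposon-derived gene needed in placenta. It read 165, 4219 and 4714 normalized counts with vehicle, 253, 7842 and 6570 with E2, 194, 2068 and 1928 with E2 plus fulvestrant and 134, 1891 and 1683 with fulvestrant. Replicate 1 was far below replicates 2 and 3 for Peg10 in every group, while Sgce was higher in replicate 1. Ppp1r9a, 156 kb from Sgce, changed by -0.95 ± 0.10 (adjusted p = 6.2e-05) and kept its call without the block (0.0131). Airn, the noncoding RNA that runs antisense through part of Igf2r and silences its paternal copy, gave 0.21 ± 0.12 (adjusted p = 0.223) and -0.022 without replicate 1, with 523 and 495 normalized counts in the 2 samples of replicate 1 with fulvestrant and 239 to 320 in the other 10. Mkrn3 and Peg12 near Ndn and Nespas in the Gnas locus were not called in the fit of all 12 samples. Nespas gave -0.43 there and was called without replicate 2, at -0.86 (adjusted p = 0.031), and Peg12 gave 0.21 and was called without replicate 1, at 0.36 (adjusted p = 0.042).

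In the cluster of Dlk1 and Meg3 on chromosome 12, 3 of 5 genes in the table fell, beside 7.81% of all genes, and none of the 5 was called without the replicate block. Dlk1, a growth regulator of the Notch ligand family, changed by -0.83 ± 0.04 (adjusted p = 3.7e-07) and was lower in all 6 same-numbered pairs (-0.92 to -0.74). Its values were 15457, 5657 and 5099 with vehicle and 8700, 3168 and 3055 with fulvestrant, so replicate 1 was also the highest here. Rian and Rtl1 changed by -0.31 ± 0.07 and -0.58 ± 0.17 (adjusted p = 0.0072 and 0.0288). Meg3 (-0.24 ± 0.20) and Mirg (-0.17 ± 0.19) did not pass, and both were lowest in replicate 2 with E2 (14752 and 1556). Without replicate 2 both were called, at -0.52 for Meg3 (adjusted p = 0.028) and -0.41 for Mirg (adjusted p = 0.0051). Of the remaining called genes, Mest changed by -0.59 ± 0.14 (adjusted p = 0.0117), the matrix proteoglycan Dcn by -0.38 ± 0.09 (adjusted p = 0.0113), Ampd3 by 0.46 ± 0.10 (adjusted p = 0.0067) and Atp10a by 0.38 ± 0.03 (adjusted p = 2.0e-05). Atp10a, Dlk1, Peg10 and Ppp1r9a kept their call when each sample and each replicate number was left out in turn, and the other 7 called genes did not. Of the 15 such fits the call was lost in 11 for Rtl1, 5 for Kcnq1ot1, 2 each for Ampd3, Dcn and H19 and 1 each for Mest and Rian. Without replicate 1 the differences were 0.22 for Kcnq1ot1 (adjusted p = 0.099), -0.36 for Rtl1 (adjusted p = 0.166) and -0.30 for Mest, which was still called.

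The partners of each gene were taken from short lists and compared with against without fulvestrant, where 7.71% of all genes rose and 7.81% fell. Of the Plagl1 family, Plag1 gave -0.11 ± 0.06 (adjusted p = 0.169) and Plagl2 0.17 ± 0.05 (adjusted p = 0.0394, under the fold threshold), so 0 of 2 were called, with 1 at an unadjusted p under 0.05. Of 15 cyclin-dependent kinase inhibitors, kinases and cyclins in the table, 2 rose and none fell, against 15.5% of all genes called in either direction, and their median log2 difference was 0.05. Ccnd1, which encodes cyclin D1, rose by 0.60 ± 0.12 (adjusted p = 0.0039), from 2973 to 6560 normalized counts without fulvestrant to 5151 to 7087 with it. In replicate 1 it read 6560 with vehicle and 6572 with fulvestrant, and 6385 with E2 and 7087 with E2 plus fulvestrant, so most of the rise lay in replicates 2 and 3. Without replicate 2 its adjusted p was 0.093, without replicate 3 it was 0.098, and without replicate 1 the difference was 0.86. Cdk6, its kinase partner, rose by 0.36 ± 0.06 (adjusted p = 0.0020). The relatives of Cdkn1c in the Cip/Kip family gave 0.05 ± 0.04 for Cdkn1a (p21, adjusted p = 0.359) and -0.19 ± 0.05 for Cdkn1b (p27, adjusted p = 0.0155, under the fold threshold).

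Of 12 partners in IGF and insulin signalling in the table, 4 fell and none rose, beside 7.81% of all genes lower, and their median was -0.09. Igf1, the growth factor, changed by -0.69 ± 0.04 (adjusted p = 8.5e-07). It read 2419 to 2906 normalized counts without fulvestrant and 1567 to 1724 with it, and its call held without the block (adjusted p = 4.9e-05). The receptor substrate Irs1 changed by -0.48 ± 0.06, the adaptor Grb14, a relative of Grb10, by -0.38 ± 0.07 and the kinase subunit Pik3r1 by -0.27 ± 0.07 (adjusted p = 1.6e-04, 0.0022 and 0.0103). Igf2, the ligand taken up by Igf2r, read 243 to 382 normalized counts without fulvestrant and 134 to 534 with it and was not called over all 12 samples, at -0.60 ± 0.24 (adjusted p = 0.0894) and lower in 5 of 6 pairs. Without replicate 1 it was called, at -0.87 (adjusted p = 2.6e-04). The receptors Igf1r and Insr gave 0.16 ± 0.06 and 0.01 ± 0.07.

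Of 6 apoptosis partners of Peg3 in the table, among them Siah1a, Traf2, Bax and Trp53, 0 were called, with 1 at an unadjusted p under 0.05. Of 7 necdin partners and MAGE family genes, Maged1 and Maged2 fell (-0.52 ± 0.04 and -0.66 ± 0.05, adjusted p = 1.5e-05 and 6.8e-06) and E2f1 gave 0.03 ± 0.05. Of 10 genes of the sarcoglycan and dystroglycan complex, 3 rose and 2 fell. Among them dystrophin (Dmd) rose by 0.51 ± 0.07 and Dtna by 0.45 ± 0.13, and Sntb1 and Utrn changed by -0.77 ± 0.15 and -0.28 ± 0.08. The other sarcoglycans in the table, Sgcb and Sgcd, gave -0.05 ± 0.03 and -0.23 ± 0.08 and were not called, although Sgcd was in 2 of the fits that left out samples.

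Of 15 genes that act with the Gnas product, 2 rose and 1 fell, beside 15.5% of all genes called, and their median was 0.06. Adcy3, an adenylyl cyclase, changed by -0.66 ± 0.05 (adjusted p = 5.8e-06) and read 1605 to 2414 normalized counts without fulvestrant and 1071 to 1432 with it. Adcy4, another cyclase listed at 28 to 83 normalized counts, rose by 0.69 ± 0.17 and the G protein subunit Gng12 by 0.27 ± 0.04 (adjusted p = 0.0105 and 4.5e-04). Of 9 genes of the GCN2 pathway, 3 rose: Ppp1r15a by 0.46 ± 0.05, Eif2s1, the factor that GCN2 phosphorylates, by 0.28 ± 0.05, and Chac1 by 0.49 ± 0.15 (adjusted p = 1.7e-04, 0.0016 and 0.0282), beside 7.71% of all genes higher. In all 9 the signed fulvestrant difference was lower in replicate 1 than in replicates 2 and 3, and 3 passed both thresholds in that test, as did 6.87% of all genes. Chac1 was lower with fulvestrant in 2 of 6 pairs, and without replicate 1 its difference was 0.80. Eif2ak4, which encodes GCN2 itself, gave 0.04 ± 0.04 and Atf4 0.15 ± 0.06, and neither was called. Without the replicate block Igf1 and Adcy3 were the 2 partner genes still called. Of the partner genes named as risen or fallen, Adcy4, Ccnd1, Chac1, Dtna, Eif2s1, Gng12, Pik3r1 and Utrn lost their call in some of the 15 fits that left out 1 sample or 1 replicate number. It was lost in 11 of these fits for Utrn, 10 for Chac1, 9 for Dtna, 8 for Pik3r1, 5 for Gng12, 3 for Eif2s1, 2 for Ccnd1 and 1 for Adcy4.

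Markers of other cells moved with fulvestrant as well. The glial marker S100b fell, from 23.4 to 101 normalized counts in the 6 samples without fulvestrant to between 16.5 and 56.5 with it, and was lower in all 6 same-numbered pairs. Without the block its adjusted p was 0.590, and it was 0.060 without replicate 1 and 0.098 without replicate 2. The 2 mural markers in the table split. Myh11 rose from 9 to 31 to between 16 and 68 normalized counts, in 5 of 6 pairs (adjusted p = 0.0321, and 0.416 without the block), while Cspg4 gave 0.00 ± 0.10, higher in 2 pairs and lower in 4. The call of Myh11 was lost without any 1 of the 3 replicate numbers. The endothelial marker Tek and the immune marker Cd68 were not called. Of the 9 fibroblast markers 5 fell and none rose, beside 7.81% of all genes lower, and without the block 1 was called, Esr1. Esr1 changed by -1.86 ± 0.14 on the log2 scale. Vim was higher in all 6 pairs, by 0.22 ± 0.06, under the fold threshold. The part of these cells or markers in the differences above was not tested.

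Across the 12 samples, after the mean of each replicate number was taken out, the genes most like Plagl1 were Prrx1, Zmynd8 and Mmp16 (Pearson r of 0.99 each), and those most like Cdkn1c were Ifngr1, Abi1 and Lpin3 (0.99 each). Plagl1 and Cdkn1c themselves had r = -0.96. These coefficients describe 12 values that share 4 treatments, so they mostly follow the split by fulvestrant. With against without fulvestrant Mmp16, a membrane metalloproteinase, changed by -0.93 ± 0.05, Zmynd8 by -0.58 ± 0.04 and Prrx1, a mesenchymal homeobox factor, by -0.33 ± 0.04. Lpin3 changed by 1.28 ± 0.13, Ifngr1, an interferon gamma receptor chain, by 0.77 ± 0.08 and Abi1 by 0.18 ± 0.03.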

How the data were processed

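RNA-Seq was analysed in 12 samples of primary HAFs, in 4 groups of 3 set by the submitters' labels. Per the submitters' processing notes and the paper's methods, the authors trimmed reads with Trimmomatic 0.39, aligned them to mm10 with STAR 2.5.2, counted them by gene and strand with HTSeq 0.13.5, removed low counts and normalized with DESeq2 1.37. What the authors deposited is 1 normalized count (a signal value) for each gene in each sample, and 100% of these are whole reads (to 0.05 of a read) once divided by 1 factor per sample. Every gene had at least 10 reads in every sample, so genes silent in some samples are not in the table. The paper describes a batch adjustment, and the samples still separate by replicate number in these values.

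Symbols were found for 13149 of 13233 identifiers, and positions came from GENCODE M21 on GRCm38, the mm10 build. From the values, log2(value + 1) was fitted with limma 3.58.1 in R 4.3.3 (eBayes with a variance trend) on all 12 samples, with the replicate number as a block and 6 residual degrees of freedom. Benjamini-Hochberg adjustment covered 13233 genes. Calls needed an adjusted p under 0.05 together with a fold change over 1.2. Errors are standard errors of the fitted log2 difference, and intervals are 95%. Fold changes are on the log2(value + 1) scale. The fit was tested on simulated data in which fulvestrant moved each changed gene equally in every replicate number. That test therefore does not cover fulvestrant differences that vary between replicate numbers.

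The pairing rests on the replicate numbers in the labels. Deviations from the group means correlated across genes at 0.84 to 0.92 between samples numbered 1, at 0.66 to 0.80 between those numbered 2 and at 0.63 to 0.78 between those numbered 3. Replicates 2 and 3 correlated with each other at 0.63 to 0.79, and with replicate 1 at -0.86 to -0.71. Deviations from a group mean cancel within the group, so an outlying replicate 1 by itself makes replicates 2 and 3 correlate positively. Their correlation with each other was about as high as that within each number. The correlations therefore set replicate 1 apart but cannot tell whether samples numbered 2 and 3 are rightly paired by number.

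The 9 members, the gene lists and the replicate block were chosen with earlier results of these data known. From the lists, called genes (at most the 6 of largest change) and the partners of a member are named, along with the 3 genes most like Plagl1 and Cdkn1c by Pearson r and Pgr as a check. Genes named outside this rule, such as the imprinted neighbours, were chosen after their values were seen. Alternatives left out each sample and each replicate number, dropped the block, the variance trend or the fold minimum, fitted only the groups compared, used pseudocounts of 0.5 and 10 or genes with a mean of at least 100, and rescaled the values to CPM or by quantiles. Tests on read counts were not run. A few genes of the lists are counted but not reported here by name. Python 3.11.15 with pandas 2.3.3, numpy 2.4.6 and matplotlib 3.10.9 was used for summaries and plots.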

Additional observations from a re-analysis of the deposited data

Results flagged for a closer look

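In 3 genes the fulvestrant difference differed between replicate numbers, by a test of the difference itself that was added after the data were seen. The fulvestrant difference (log2) was larger in replicate 1 than in replicates 2 and 3 by 0.75 for Igf2r, which was higher with fulvestrant in both pairs of replicate 1 and lower in 3 of the other 4. It was larger by 0.47 for Cdkn1c, which was higher in all 6 pairs. It differed by 0.32 for Sgce, which was lower with fulvestrant in all 4 pairs of replicates 2 and 3 and near 0 in replicate 1. Of all genes, 6.87% passed both thresholds in this test. It sets replicate 1, picked out in these same data, against replicates 2 and 3, so its p-values do not measure the spread between replicate numbers. The replicate number is not a group that the labels define by a treatment, and the cause was not tested.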

How the results depend on the processing

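The fit with no replicate block gave 0 members called with against without fulvestrant, 0 for fulvestrant against vehicle and 0 for E2 against E2 plus fulvestrant, where the blocked fit gave 2 each, and 2 of the other imprinted genes in place of 11. Over all genes it called 310 in place of 2054, 72 in place of 1648 and 69 in place of 1270. The log2 differences are the same in both fits, so the pairing changes their error only. By adjusted p alone 5 members passed with against without fulvestrant (Cdkn1c, Impact, Ndn, Plagl1 and Sgce), and 3752 genes. Leaving out single samples or replicate numbers gave 2 to 3 members called in each of these 3 comparisons (Sgce was the one gained), 0 to 0 in the other three, and 6 to 13 other imprinted genes. Plagl1 and Cdkn1c were called in these 3 comparisons in every alternative but the one with no block.

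Among the 9 members, the differences that changed direction were ones that were not called. With against without fulvestrant, leaving out samples gave -0.13 to 0.27 for Igf2r, -0.023 to 0.089 for Grb10 and -0.12 to 0.018 for Peg3. For E2 against E2 plus fulvestrant the ranges were -0.25 to 0.13 for Igf2r and -0.13 to 0.088 for Grb10. For fulvestrant against vehicle Igf2r ranged from -0.12 to 0.35. For E2 against vehicle the ranges were -0.036 to 0.31 for Igf2r and -0.17 to 0.049 for Peg3. For E2 plus fulvestrant against fulvestrant they were -0.060 to 0.29 for Igf2r, -0.015 to 0.048 for Ndn and -0.014 to 0.095 for Gnas, which was also -0.017 after quantile normalization. For the interaction they were -0.14 to 0.12 for Cdkn1c, -0.25 to 0.17 for Igf2r, -0.13 to 0.081 for Grb10, -0.13 to 0.029 for Sgce and -0.023 to 0.051 for Impact. The interaction also turned under CPM scaling for Cdkn1c (0.010) and Grb10 (0.0013), and under quantile normalization for Grb10 (0.055) and Igf2r (0.0053). The cause was not tested.

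The planned tests on whole reads (edgeR and DESeq2) were not run, although the values can be turned back into whole reads, so how a count model would move the calls is not known. No alternative moved the median of all genes by over 0.1 (log2). The lowest value of a member was 510 normalized counts, and the part of depth was not tested. With 3 samples a group and a wide spread between replicate numbers, the smaller differences remain uncertain.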
